A study of Sus scrofa with 8 samples.

Results

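Oxidative phosphorylation transcripts were described in the endometrium of pregnant gilts of 2 pig breeds, Meishan and Yorkshire. Members were the probesets of a porcine expression array whose gene symbol, in the annotation of the array or in the authors' supplementary list of selected probesets, is that of a nuclear subunit family of complexes I to V (NDUFA, NDUFB, NDUFC, NDUFS, NDUFV, SDHA to SDHD, UQCR, COX4 to COX8, ATP5) or CYC1 or CYCS. This gave 85 probesets of 67 genes, out of 23999 non-control probesets and 6790 named genes. The annotation named 84 of these probesets (66 genes, of which 60 encode subunits or cytochrome c and 6 encode assembly or coupling factors), and the supplementary list named the remaining gene, NDUFAF4. A further 3 probesets that name a member beside another gene were not counted.

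The 4 Meishan gilts and the 4 Yorkshire gilts had been mated to boars of their own breed at the second or the third estrus and were killed on day 12 of gestation. A gilt was used only where its conceptuses had elongated to filaments. Whole endometrium was collected, so that the RNA came from a mixture of epithelium, stroma, vessels and other cells. In such bulk tissue, fewer cells of a type and less RNA per cell cannot be told apart. Each gilt was hybridized to 1 one-colour Affymetrix array, and the trimmed mean signal was 500.1 on every array.

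Oxidative phosphorylation takes place in the inner mitochondrial membrane. Complex I (NADH dehydrogenase) and complex II (succinate dehydrogenase) pass electrons to ubiquinone, complex III passes them to cytochrome c, and complex IV (cytochrome c oxidase) passes them to oxygen. Complexes I, III and IV pump protons, and complex V (ATP synthase) uses the proton gradient to make ATP. A few subunits are encoded in mitochondrial DNA and were not among the genes named on the array, so the values below are those of the nuclear genes. The endometrium of early pregnancy secretes nutrients for the conceptus, a process that requires ATP.

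Meishan and Yorkshire endometrium did not separate in the level of these genes as a group. Of the 66 genes, each taken at its brightest probeset, 33 had a higher mean in Meishan and 33 in Yorkshire, and the median log2 difference (Meishan minus Yorkshire) was 0.01. The median over all 23999 probesets was 0.02, and over the brightest 10% of probesets, which held 41 of the 66 genes, it was -0.04. None of the 84 annotated probesets was called between breeds at an adjusted p under 0.1 (limma with Benjamini-Hochberg adjustment over all probesets), while 0.908% of all probesets were called. With an unadjusted p under 0.05 there were 6 member probesets, or 7.14%, against 14.8% of all probesets. That count was 3 without Meishan gilt 3 and 3 without Meishan gilt 4, against 2992 and 2829 of all 23999 probesets. The gilts were fully separated by breed in 5 member probesets, or 5.95%, against 10.1% of all probesets. Of the brightest 10% of probesets, 0.458% were called, 12.3% had an unadjusted limma p under 0.05 and 12.2% were fully separated.

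The width of the intervals sets what these 8 arrays could show. The 95% confidence interval of the difference lay wholly within 2-fold in either direction for 56 of the 66 genes and reached 2-fold for 10. The genes reaching 2-fold were NDUFS7, NDUFA9, NDUFA12, NDUFAB1, NDUFB7, NDUFV3, SDHC, COX8H, ATP5I and SDHAF2. A p that misses the threshold therefore leaves room for differences inside these intervals.

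**Figure D1:**
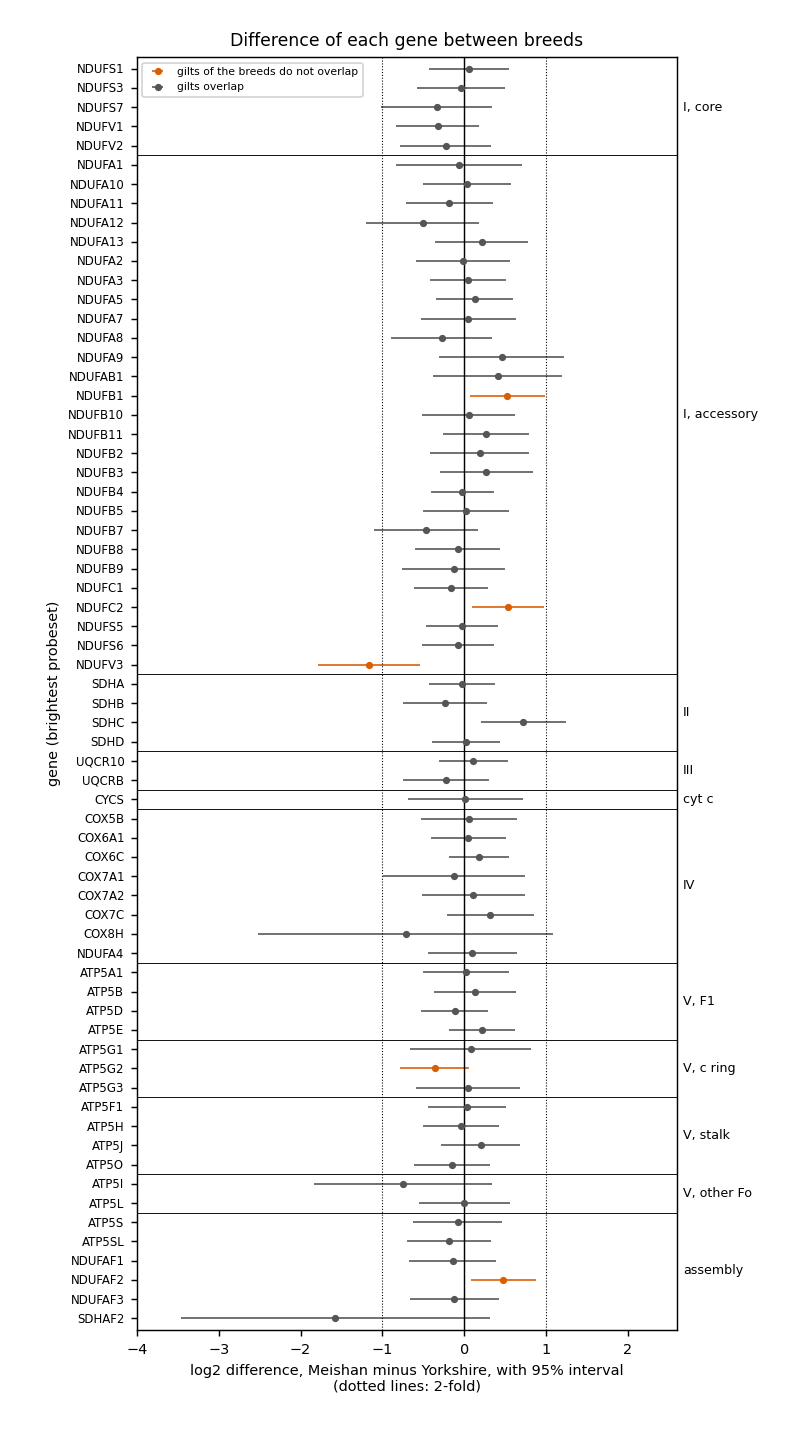
Log2 difference between breeds (x axis, Meishan minus Yorkshire) for each of 66 genes (rows, grouped by complex), with points for the limma estimate, bars for its 95% confidence interval and dotted lines at 2-fold. Most intervals cross 0, and the 5 genes whose gilts do not overlap (NDUFB1, NDUFC2, NDUFV3, ATP5G2 and NDUFAF2) are drawn in orange.

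Complex I was measured by 32 genes, 15 of them higher on average in Meishan and 17 in Yorkshire, with a median log2 difference of -0.02. The 5 core subunits, which carry the flavin and most of the iron-sulfur clusters, had 1 difference toward Meishan (NDUFS1, 0.06) and 4 toward Yorkshire, with a median of -0.23. NDUFS7 had -0.34, NDUFV1 -0.32, NDUFV2 -0.23 and NDUFS3 -0.04, and the lowest adjusted p among the 5 was 0.537. The dimmer probesets of NDUFV2 had 0.00 and 0.03 and those of NDUFS3 had 0.42 and 0.39. The lean of the core toward Yorkshire therefore depended in part on the probeset taken. The 27 accessory subunits, which surround and stabilise the core, were divided into 14 toward Meishan and 13 toward Yorkshire, with a median of 0.02.

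NDUFV3, an accessory subunit of the NADH-oxidising end of complex I, had the lowest p of all members. Its signal was 83.0, 140, 82.5 and 112 in Meishan gilts 1 to 4, against 293, 227, 255 and 158 in Yorkshire gilts 1 to 4. Every Yorkshire gilt was above every Meishan gilt. The log2 difference was -1.16 (95% interval -1.78 to -0.54), or 2.24-fold higher in Yorkshire, with an adjusted p of 0.13. The adjusted p was 0.0607 when dim probesets (mean signal under 64) were left out before the limma fit and the adjustment. Over all the alternatives with a limma adjusted p it ranged from 0.0607 to 0.279.

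NDUFC2, an accessory subunit of the membrane arm, lay on the other side. Its signal was 4526, 3201, 3546 and 3850 in Meishan gilts, against 2393, 2220, 2915 and 2934 in Yorkshire gilts. The lowest Meishan gilt was above the highest Yorkshire gilt, and the log2 difference was 0.53 (0.09 to 0.97) with an adjusted p of 0.259. NDUFB1, also of the membrane arm and chosen for mention after its values were seen, had signals of 3295, 2288, 2909 and 2884 in Meishan gilts, against 1559, 2133, 2223 and 1986 in Yorkshire gilts. Here too the gilts did not overlap, by a narrow margin between 2288 and 2223, and the log2 difference was 0.53 (adjusted p 0.277).

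NDUFA1, a small membrane-arm subunit that anchors others, held the brightest complex I probeset, one whose suffix (_s_at) marks probes shared by several transcripts. Its signal was 3664, 7016, 7970 and 7773 in Meishan gilts, against 9612, 5045, 7672 and 5124 in Yorkshire gilts. The breeds overlapped widely, the log2 difference was -0.06 (adjusted p 0.948), and Meishan gilt 1 was the lowest of all 8. At the second NDUFA1 probeset the signals were 5342, 2619, 2814 and 2409 in Meishan gilts, against 3944, 3210, 3603 and 4401 in Yorkshire gilts, so that Meishan gilt 1 was the highest of all 8. The probesets of this gene therefore ordered the gilts differently, although both breed differences were toward Yorkshire (-0.06 and -0.27).

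The other 23 accessory subunits of complex I had log2 differences from -0.51 to 0.46, none with an unadjusted p under 0.05. Those furthest toward Meishan were NDUFA9 (0.46), the acyl carrier protein NDUFAB1 (0.41), NDUFB11 (0.27), NDUFB3 (0.27) and NDUFA13 (0.22). Those furthest toward Yorkshire were NDUFA12 (-0.51), NDUFB7 (-0.46), NDUFA8 (-0.28), NDUFA11 (-0.18) and NDUFC1 (-0.16). The remaining 13 (NDUFA2, NDUFA3, NDUFA5, NDUFA7, NDUFA10, NDUFB2, NDUFB4, NDUFB5, NDUFB8, NDUFB9, NDUFB10, NDUFS5 and NDUFS6) lay between -0.13 and 0.19.

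All 4 subunits of complex II, which is also the succinate-oxidising enzyme of the citric acid cycle, were measured. The median log2 difference was -0.004. SDHC, the large cytochrome b subunit that anchors the complex in the membrane, had the largest log2 difference of the 4. Its signal was 697, 472, 669 and 784 in Meishan gilts, against 336, 422, 336 and 487 in Yorkshire gilts. Only Meishan gilt 2 fell within the Yorkshire range, and the log2 difference was 0.72 (0.20 to 1.25) with an adjusted p of 0.212. The partner anchor SDHD (0.02) and the flavoprotein SDHA (-0.03) had differences near 0.

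SDHB, the iron-sulfur subunit and the brightest of complex II, had signals of 4398, 3197, 4098 and 2677 in Meishan gilts. The Yorkshire gilts had 4206, 3447, 4943 and 4113. The ranges overlapped, with a log2 difference of -0.23 (adjusted p 0.672), and the other SDHB probeset had -0.20.

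**Figure D2:**
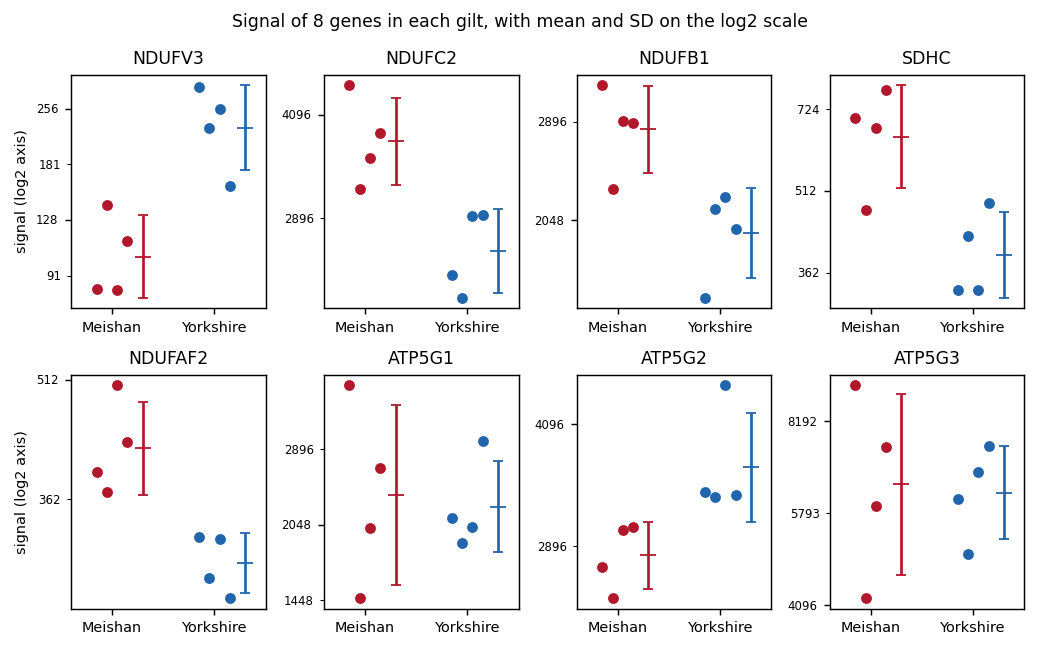
Signal in each gilt (points, log2 y axis) of 8 genes, Meishan left and Yorkshire right in each panel, with the mean and SD of the 4 gilts on the log2 scale beside the points. NDUFV3 and ATP5G2 are higher in every Yorkshire gilt, NDUFC2, NDUFB1 and NDUFAF2 in every Meishan gilt, and SDHC, ATP5G1 and ATP5G3 overlap.

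Complex III was represented by 2 small supernumerary subunits. UQCRB had signals of 4846, 2791, 2731 and 3265 in Meishan gilts, against 3689, 3431, 4364 and 4008 in Yorkshire gilts, at a probeset with the same suffix for shared probes. Meishan gilt 1 was above all the Yorkshire gilts and the other Meishan gilts were below them, and the log2 difference was -0.22 (adjusted p 0.701). UQCR10 had 3535, 3072, 3033 and 3123 in Meishan gilts, against 3655, 2498, 3042 and 2716 in Yorkshire gilts, which overlapped with a log2 difference of 0.11 (adjusted p 0.82). CYC1 and the other subunits of this complex were not analysed here.

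CYCS, the soluble cytochrome c that carries electrons between complexes III and IV, had signals of 1351, 619, 630 and 1000 in Meishan gilts, against 1066, 766, 664 and 944 in Yorkshire gilts. The Meishan gilts spanned the whole Yorkshire range, and the log2 difference was 0.01 (95% interval -0.69 to 0.71, adjusted p 0.992).

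Complex IV was measured by 8 genes, 6 toward Meishan and 2 toward Yorkshire, with a median log2 difference of 0.08 and a lowest adjusted p of 0.566. COX7C had the lowest p, with signals of 9701, 6450, 8097 and 6805 in Meishan gilts, against 5019, 5078, 7702 and 7238 in Yorkshire gilts. The log2 difference was 0.32 (-0.21 to 0.85), and the gilts overlapped. COX6C, the brightest of the 8, had 11367, 10990.1, 10731 and 10120.3 in Meishan gilts, against 10165, 8612, 10552 and 8819 in Yorkshire gilts, with a log2 difference of 0.18 (adjusted p 0.639). COX5B, which binds zinc on the matrix side, had 0.06.

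Several complex IV subunits have isoforms with different tissue use. COX6A1, the form found in most tissues, had signals of 8665, 5611, 6412 and 7026 in Meishan gilts, against 6372, 5740, 7803 and 6722 in Yorkshire gilts, and its log2 difference was 0.05 (adjusted p 0.936). COX7A2, the counterpart used outside striated muscle, had 5825, 2614, 4117 and 4437 in Meishan gilts, against 4114, 2898, 4094 and 4188 in Yorkshire gilts, with a log2 difference of 0.11 (adjusted p 0.884). Both isoforms overlapped between breeds, with Meishan gilt 1 highest and Meishan gilt 2 lowest.

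COX7A1, the form best known from heart and skeletal muscle, ordered the gilts otherwise. It had 377, 627, 729 and 459 in Meishan gilts, against 396, 383, 1021 and 715 in Yorkshire gilts, with a log2 difference of -0.12 (adjusted p 0.911). Yorkshire gilt 3 was the highest and Meishan gilt 1 the lowest of all 8.

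COX8H, a heart form by its symbol, was near the floor of the array. Its signal was 12.2, 145, 43.3 and 16.9 in Meishan gilts, against 91.1, 46.7, 80.4 and 27.7 in Yorkshire gilts, and the log2 difference of -0.72 had a 95% interval of -2.52 to 1.08 and lay between -1.42 and -0.19 over the alternatives. NDUFA4, once assigned to complex I and now placed with complex IV, had 8461, 4554, 4815 and 6997 in Meishan gilts, against 5458, 5271, 5939 and 5785 in Yorkshire gilts. The Meishan gilts lay on both sides of the narrow Yorkshire range, and the log2 difference was 0.10 (adjusted p 0.881).

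Complex V was measured by 13 genes, 7 toward Meishan and 6 toward Yorkshire, with a median log2 difference of 0.02. The measured subunits of F1, the part that holds the catalytic sites, had 0.02 (ATP5A1, alpha), 0.13 (ATP5B, beta), -0.12 (ATP5D, delta) and 0.22 (ATP5E, epsilon). ATP5E was the brightest, with signals of 17792, 13365, 13765 and 14033 in Meishan gilts, against 11951, 11253, 13624 and 13677 in Yorkshire gilts (adjusted p 0.609). Only Meishan gilt 2 lay within the Yorkshire range. The peripheral stalk genes, whose proteins hold F1 still against the rotating ring, had 0.03 (ATP5F1), -0.04 (ATP5H), 0.20 (ATP5J) and -0.15 (ATP5O).

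The c ring, the rotor that protons turn, is built from a single mature protein that ATP5G1, ATP5G2 and ATP5G3 all encode with different import sequences. ATP5G2 had signals of 2733, 2499, 3031 and 3062 in Meishan gilts, against 3378, 3334, 4571 and 3346 in Yorkshire gilts. Every Yorkshire gilt was above every Meishan gilt, and the log2 difference was -0.36 (-0.78 to 0.06) with an adjusted p of 0.406. ATP5G1 had 3883, 1464, 2019 and 2654 in Meishan gilts, against 2118, 1885, 2033 and 3016 in Yorkshire gilts, with a log2 difference of 0.08 (-0.66 to 0.82).

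ATP5G3 had 9379, 4209, 5952 and 7433 in Meishan gilts, against 6124, 4967, 6770 and 7464 in Yorkshire gilts, with a log2 difference of 0.05 (-0.59 to 0.69). ATP5G1 and ATP5G3 thus overlapped between breeds, both with Meishan gilt 1 highest and Meishan gilt 2 lowest of all 8, whereas ATP5G2 was highest in Yorkshire gilt 3. Whether the 3 genes differ in their breed difference was not tested.

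ATP5I and ATP5L encode subunits e and g of the membrane part, which hold ATP synthase dimers together. The brighter ATP5I probeset had 531, 302, 530 and 158 in Meishan gilts, against 659, 561, 321 and 903 in Yorkshire gilts, with a log2 difference of -0.75 (-1.83 to 0.34, adjusted p 0.504), which was -0.38 without Meishan gilt 4 and -1.03 without Yorkshire gilt 3. The dimmer one had 13.9, 72.1, 59.1 and 11.8 in Meishan gilts, against 7.66, 5.92, 5.49 and 19.1 in Yorkshire gilts, with a log2 difference of 1.80 (0.19 to 3.41, adjusted p 0.29), which was 0.51 with signals floored at 32. The probesets of ATP5I lay on opposite sides, both with overlapping gilts, and the dimmer one averaged under a signal of 64 in each breed. ATP5L had nearly the same mean signal in the breeds, 3861 in Meishan and 3861 in Yorkshire, and counts toward Yorkshire by its sign alone.

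The assembly and coupling factors are not part of the finished complexes. Of the 6 annotated genes, 1 was toward Meishan and 5 toward Yorkshire, with a median log2 difference of -0.13. NDUFAF2, an assembly factor of complex I, was the one toward Meishan, with 392, 370, 504 and 427 in Meishan gilts, against 325, 288, 323 and 272 in Yorkshire gilts. The gilts did not overlap at this probeset, which also carries the suffix for shared probes, and the log2 difference was 0.48 (0.08 to 0.88) with an adjusted p of 0.265.

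The other NDUFAF2 probeset was dim, with 15.1, 51.7, 2.28 and 3.93 in Meishan gilts, against 20.8, 15.8, 8.49 and 11.9 in Yorkshire gilts. Its log2 difference was on the opposite side at -0.56, with an interval of -2.67 to 1.54. SDHAF2, which attaches the flavin to SDHA, is mentioned because of its spread, seen in its values. It had 406, 22.2, 150 and 269 in Meishan gilts, against 506, 413, 438 and 318 in Yorkshire gilts. Its log2 difference of -1.58 (-3.47 to 0.31, adjusted p 0.417) was -0.70 without Meishan gilt 2, and its other probeset lay at 0.37.

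NDUFAF1 (-0.14), NDUFAF3 (-0.12), ATP5SL (-0.19) and ATP5S (-0.08) completed the annotated factors. NDUFAF4, the gene named only by the authors' list, had signals of 291, 157, 145 and 202 in Meishan gilts, against 88.8, 79.7, 145 and 170 in Yorkshire gilts. Because that list holds only probesets selected on the same breed contrast, its log2 difference of 0.74 is a description and was given no test.

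More than 1 probeset was present for 15 of the 66 genes, and in 12 of these the log2 differences of the probesets had opposite signs, or in 10 when differences within 0.005 of 0 (in NDUFB3 and ATP5L) are set aside. In NDUFS3, a core complex I subunit, the brightest probeset had -0.04 and the others 0.42 and 0.39. In NDUFS6 the brighter had -0.08 and the dimmer 0.78, in ATP5S the brighter had -0.08 and the dimmer 0.33, and in ATP5L the brightest had 0.00 and the dimmest 0.72. The same sign was found in NDUFA1, SDHB and COX7C only. Of the 84 probesets, 77 had a mean signal of at least 64 and 7 were dimmer.

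The gilts differed more within breeds than the breeds did. For each gene the log2 signal of a gilt was set against the mean of the 8 gilts, and these deviations were averaged over the 60 subunit genes. The averages were 0.29, -0.26, -0.08 and 0.01 in Meishan gilts 1 to 4, against -0.00, -0.17, 0.13 and 0.08 in Yorkshire gilts 1 to 4. Meishan gilt 1 was thus the highest and Meishan gilt 2 the lowest of all 8, with the Yorkshire gilts between them. The SD of the averages was 0.23 in Meishan and 0.13 in Yorkshire, and the means of the breeds differed by -0.02. Over the brightest 10% of probesets the averages were 0.14, -0.09, -0.06 and -0.07 in Meishan gilts 1 to 4. In Yorkshire gilts 1 to 4 they were 0.02, -0.07, 0.09 and 0.03. After quantile normalization the subunit averages were 0.14, -0.16, 0.01 and 0.08 in Meishan gilts, against -0.01, -0.13, 0.02 and 0.04 in Yorkshire gilts. Meishan gilts 1 and 2 were then still the highest and the lowest, but closer together.

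**Figure D3:**
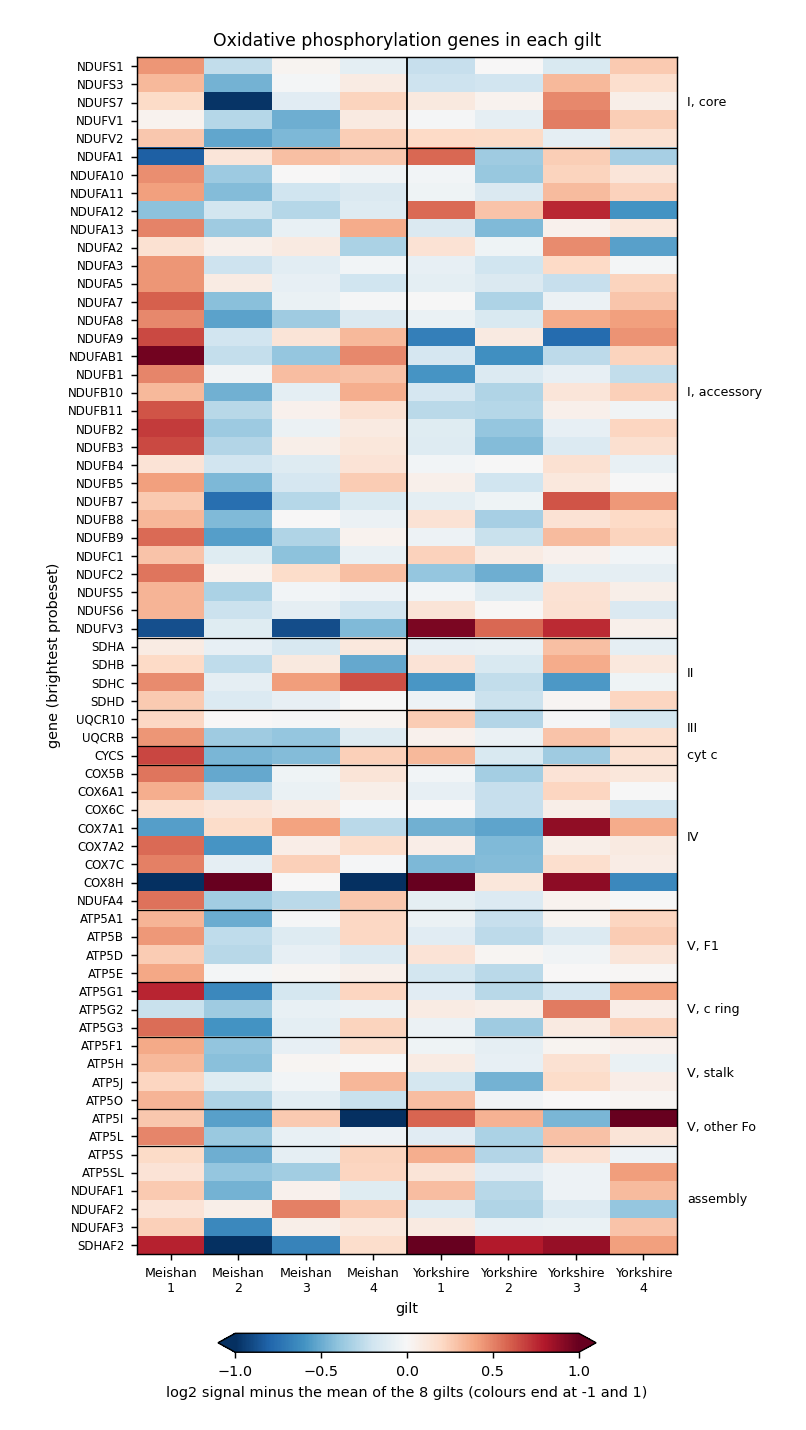
Log2 signal of 66 genes (rows, by complex) in 4 Meishan gilts (left) and 4 Yorkshire gilts (right), as the deviation from the mean of the 8 gilts, red above and blue below, with colours ending at -1 and 1. The column of Meishan gilt 1 is mostly red and that of Meishan gilt 2 mostly blue, while no block of rows is of one colour across a breed.

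Gene by gene, Meishan gilt 1 was the highest of the 8 gilts in 42 of 60 subunits (70.0%), which compares with 18.0% of all probesets and 33.6% of the brightest 10%. Meishan gilt 2 was the lowest in 30 (50.0%), against 14.0% of all probesets and 21.7% of the brightest 10%. The genes are measured on the same 8 arrays and are not independent, so these shares carry no test. After quantile normalization, an alternative added for these counts after the data were seen, Meishan gilt 1 was highest in 26 (43.3%, against 18.4% of the brightest 10%) and Meishan gilt 2 lowest in 20 (33.3%, against 14.1%). Other genes of the pathway shared part of this pattern. Their average log2 deviation in Meishan gilts 1 and 2 was 0.32 and -0.28 for carriers and 0.29 and -0.06 for citric acid cycle enzymes. It was 0.42 and -0.08 for ATPIF1, 0.10 and -0.19 for assembly factors outside the member families, and 0.07 and 0.01 for biogenesis regulators. A high Meishan gilt 1 was thus not particular to the subunits.

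The subunits that departed from this order can be named. Meishan gilt 1 was the lowest of all 8 for NDUFA1, COX7A1 and COX8H. Yorkshire gilt 3 was highest for 10 subunits, among them the core subunits NDUFS7 and NDUFV1, the complex II subunits SDHA and SDHB, and ATP5G2. The SD of the log2 signals was larger in Meishan for 48 of 60 subunits (80.0%, against 54.8% of all probesets and 61.9% of the brightest 10%), and for 29 of 60 without Meishan gilt 1.

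By complex, the average deviation in Meishan gilts 1 and 2 was 0.32 and -0.30 for complex I, 0.26 and -0.14 for complex II, and 0.35 and -0.37 for complex V. The lowest and highest Yorkshire gilts were at -0.15 and 0.14 for complex I, -0.17 and 0.05 for complex II, and -0.15 and 0.19 for complex V. For complex III the Meishan gilts lay between -0.20 and 0.32 and the Yorkshire gilts between -0.18 and 0.15. In none of the complexes did the gilts of the breeds separate. After quantile normalization Meishan gilts 1 and 2 averaged 0.18 and -0.20 for complex I, 0.11 and -0.03 for complex II, and 0.17 and -0.27 for complex V.

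Complex IV ordered the gilts differently, with averages between -0.12 and 0.05 in Meishan and between -0.28 and 0.31 in Yorkshire. This rested on COX8H, the dimmest and most variable of the 8. Over the other 7 genes the averages were 0.30, -0.21, 0.06 and 0.05 in Meishan gilts 1 to 4, against -0.15, -0.33, 0.22 and 0.06 in Yorkshire gilts 1 to 4. Without COX8H, then, Meishan gilt 1 was again the highest, and Yorkshire gilt 2 was the lowest.

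**Figure D4:**
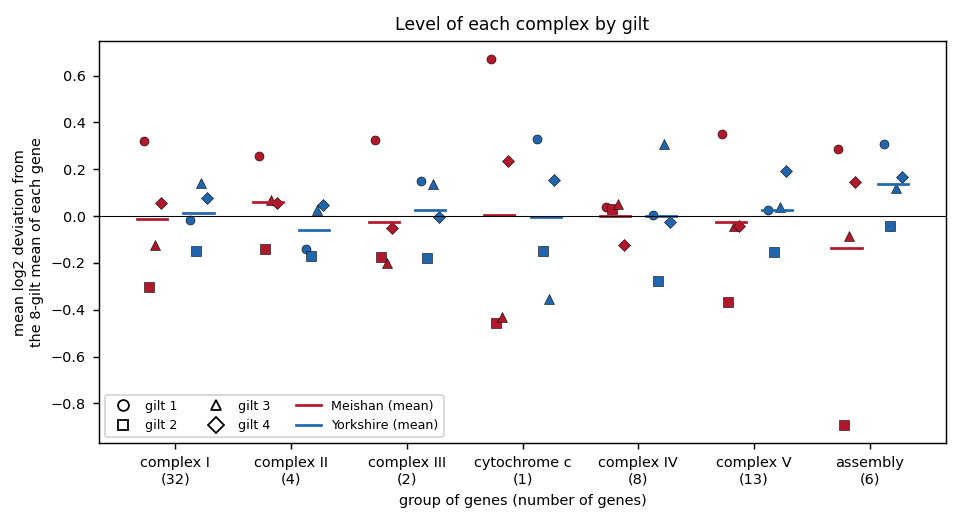
Average log2 deviation from the 8-gilt mean (y axis) over the genes of each complex, for the Meishan gilts (red, left) and the Yorkshire gilts (blue, right), with the gilt number as the symbol and the breed mean as a bar. Breed means lie within 0.15 of 0 in every group, and Meishan gilts 1 and 2 mark the ends of complexes I and V.

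Measures of tissue make-up and RNA quality also differed between gilts. The 5 epithelial markers (KRT8, KRT18, KRT19, EPCAM and CDH1) were all measured, and none had a mean signal under 64. Their summed signal was 35571, 21595, 30285 and 27506 in Meishan gilts 1 to 4, against 27378, 23159, 29035 and 36227 in Yorkshire gilts 1 to 4. Meishan gilt 1 was thus the highest and Meishan gilt 2 the lowest of Meishan for these markers too, and Yorkshire gilt 2 the lowest of Yorkshire. Unlike for the subunit averages, Yorkshire gilt 4 was the highest of all 8. By average log2 deviation Yorkshire gilts 2 and 4 were the ends, at -0.53 and 0.57, against -0.52 and 0.35 in Meishan gilts 2 and 1. The log2 ratio of the 3' to the 5' control probesets of GAPDH, which is larger in degraded or incompletely copied RNA, was 1.77, 2.84, 2.19 and 2.05 in Meishan gilts, against 2.02, 2.32, 2.51 and 1.76 in Yorkshire gilts. It was highest in Meishan gilt 2, and within Yorkshire it was highest in gilt 3, whose subunit average was the highest of that breed. The same ratio for actin was 0.64, 1.73, 1.54 and 1.40 in Meishan gilts, against 1.01, 1.31, 2.15 and 1.18 in Yorkshire gilts, so that Yorkshire gilt 3 was the highest of all 8 and Meishan gilt 1 the lowest. For EF1A it lay between -0.18 and 0.13 in Meishan and between -0.25 and -0.06 in Yorkshire. The hybridization controls averaged 12.07, 12.70, 12.25 and 12.45 in Meishan gilts 1 to 4 on the log2 scale. In Yorkshire gilts 1 to 4 they averaged 11.48, 11.05, 11.55 and 11.39. Every Meishan gilt was above every Yorkshire gilt, so the level of these controls ran with breed. A difference between the arrays and a difference between the breeds therefore cannot be told apart in any breed comparison here. Within Meishan they were lowest in gilt 1 and highest in gilt 2, and within Yorkshire lowest in gilt 2 and highest in gilt 3. The part of any of these in the order of the gilts was not tested.

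The other marker lists describe the mixture. Stromal markers (5 of 7 measured) summed to between 56787 and 62463 in Meishan and between 45689 and 54737 in Yorkshire. These sums follow the bright VIM and DCN probesets, higher in every Meishan gilt, while COL1A2 (0.24), LUM (0.07) and COL3A1 (-0.79) overlapped. The average log2 deviation of the 5 genes overlapped too (Meishan gilts -0.25 to 0.27, Yorkshire gilts -0.38 to 0.24). Smooth muscle markers (4 of 5) summed to 19182, 7573, 14332 and 17463 in Meishan gilts 1 to 4, against 15101, 11792, 14635 and 20060 in Yorkshire gilts 1 to 4. As with the epithelial markers, Meishan gilt 1 was the highest and Meishan gilt 2 the lowest of Meishan, and Yorkshire gilt 2 the lowest of Yorkshire. Yorkshire gilt 4 was again the highest of all the gilts. Endothelial markers (4 of 4) summed to between 4731 and 4859 in Meishan and between 5060 and 6724 in Yorkshire. Among them only CDH5 (-0.58) was higher in every Yorkshire gilt. VWF (-0.53) and TEK (-0.32) overlapped, and so did PECAM1 (0.11), which was toward Meishan. The average log2 deviation of these genes separated by a narrow margin (Meishan gilts -0.23 to -0.10, Yorkshire gilts -0.09 to 0.40). Leukocyte markers (3 of 4) summed to between 278 and 516 in Meishan and between 340 and 440 in Yorkshire, with PTPRC (-0.20) and CD3E (-0.66) toward Yorkshire and CD14 (0.60) toward Meishan. The 1 red cell marker measured, of 2, was between 694 and 984 in Meishan and between 612 and 1194 in Yorkshire.

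Of the conceptus markers, 3 of the 4 measured had a mean over the 8 gilts under a signal of 64, although CYP17A1 reached 90.3 in Meishan gilt 2. The fourth, IFNG, which pig conceptuses secrete, was between 14.2 and 904 in Meishan gilts and between 33.5 and 6286 in Yorkshire gilts. Of the striated muscle markers, 2 of the 3 measured had a mean over the 8 gilts under 64, with CKM at up to 125 in Meishan gilt 4 (summed signal 208 to 409 in Meishan and 209 to 353 in Yorkshire), COX7A1 and COX8H being best known from that tissue. The part of these cells in the members' values was not tested.

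Other genes of the pathway were counted from fixed lists, and none was called. Among assembly factors outside the member families, 11 of 38 were measured, 5 toward Meishan and 6 toward Yorkshire, with a median log2 difference of -0.05. ATPAF1, a chaperone of the F1 part of ATP synthase, had 191, 215, 230 and 301 in Meishan gilts, against 371, 379, 424 and 329 in Yorkshire gilts. Every Yorkshire gilt was above every Meishan gilt, with a log2 difference of -0.70 (adjusted p 0.183).

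TMEM70, needed for assembly of the same enzyme, had 399, 362, 396 and 402 in Meishan gilts, against 555, 432, 646 and 585 in Yorkshire gilts. Its gilts did not overlap either, and the log2 difference was -0.50 (adjusted p 0.265). TMEM70 has 4 probesets, and those other than the brightest were not examined. LYRM7, a complex III assembly factor, had 99.8, 93.2, 75.5 and 96.5 in Meishan gilts, against 75.5, 25.0, 50.5 and 36.6 in Yorkshire gilts. Its log2 difference was 1.07 (adjusted p 0.209), with the lowest Meishan and the highest Yorkshire gilt at the same level. The inhibitor of ATP synthase, ATPIF1, had a log2 difference of 0.13.

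Of the citric acid cycle enzymes, which supply NADH and succinate, 12 of 13 were measured, 7 toward Meishan and 5 toward Yorkshire, with a median log2 difference of 0.08. OGDH, the oxoglutarate-oxidising subunit of its complex, had 7839, 2990, 3122 and 4008 in Meishan gilts, against 2147, 891, 1886 and 3619 in Yorkshire gilts. Only Yorkshire gilt 4 reached into the Meishan range, and the log2 difference was 1.12 (adjusted p 0.328). DLST (-0.18), its partner subunit, was lower in every Meishan gilt than in any Yorkshire gilt. The margin was narrow, between 858 and 868, and the adjusted p was 0.636. Carriers and other electron donors (11 of 12 measured) had 6 toward Meishan and 5 toward Yorkshire with a median of 0.11, and none had an unadjusted p under 0.05.

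Regulators of mitochondrial biogenesis were measured for 5 of 12 genes, all toward Yorkshire, with a median log2 difference of -0.39. TFB1M, a methyltransferase of mitochondrial ribosomal RNA, had 185, 161, 125 and 133 in Meishan gilts, against 239, 252, 281 and 211 in Yorkshire gilts. YY1, a general transcription factor that also acts on mitochondrial genes, had 3624, 3394, 3512 and 2566 in Meishan gilts, against 4384, 3695, 4824 and 4207 in Yorkshire gilts. In both genes every Yorkshire gilt was above every Meishan gilt, with log2 differences of -0.71 (adjusted p 0.173) and -0.39 (adjusted p 0.38). The coactivator PPARGC1A had -0.55 with overlapping gilts (adjusted p 0.436), and TFAM (-0.15) and PPRC1 (-0.03) were closer to 0.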

How the data were processed

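Total RNA from the endometrium of 8 gilts was hybridized to Affymetrix porcine arrays. The intensities deposited by the authors are linear, and GCOS 1.2 had produced them with a common scale for all arrays. The genome build was not given in the sources used here. The authors' fold changes, p-values and q-values in the supplementary list were not used, only its gene names. Each array has 24123 probesets, of which 124 controls were left out. Log2 signals were centred on the array median and compared with limma 3.58.1 in R 4.3.3, with Benjamini-Hochberg adjustment over 23999 probesets and calls at an adjusted p under 0.1. The script was tested on simulated data. Median signals were 168 to 195 in Meishan and 171 to 187 in Yorkshire arrays, and having 4 arrays a breed limits the precision. Each array came from a different animal.

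The members, the gene lists and the tests were chosen with earlier results of these data known. A gene was taken at its brightest annotated probeset. For genes of the lists other than the members, further probesets (TMEM70 has 4 in all, and YY1, CDH5 and DCN have 2 each) were not examined. Given gilt by gilt were, in each complex, the 2 subunits with the lowest p and the brightest, the isoform families, genes with opposite probesets of which 1 had an unadjusted p under 0.05, the gene named only by the list, and up to 3 genes of each other list. NDUFB1, SDHAF2 and DLST were added after their values were seen. Levels of different probesets cannot be compared. Alternatives were quantile or cyclic loess normalization, signals without the median step, a minimum mean of 64, a floor of 32, an intensity trend, an unmoderated model, array weights, Storey q-values, a threshold of 0.05, other gene summaries, a replicate block and leaving out each gilt. Gene lists other than the members covered mitochondrially encoded genes (0 of 26 symbols measured), assembly factors, the ATP synthase inhibitor, the citric acid cycle, carriers, biogenesis regulators and cell type markers. No sequences of these genes were used here.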

Additional observations from a re-analysis of the deposited data

Results flagged for a closer look

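Of 66 groups of 4 gilts examined (named probesets and group averages, in each breed), 5 held a gilt far from the other 3 of its breed, judged by its gap to the nearest gilt as a share of the range. Chance alone marks about 1 in 20 such groups. Meishan gilt 1 stood apart for ATP5E (signal 17792, high) and for the brightest NDUFA1 probeset (3664, low). Yorkshire gilt 3 stood apart for ATP5G2 (4571, high), and Yorkshire gilt 2 for COX7A2 (2898, low). Meishan gilt 4 stood apart for the complex IV average (-0.12), which includes the dim COX8H probeset.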

How the results depend on the processing

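The count of called member probesets was 1 in place of 0 under Storey q-values, array quality weights, the intensity trend, the floor of 32 and the minimum mean signal of 64, and 0 under the other alternatives, each gilt left out included. The 1 was NDUFV3 (adjusted p 0.0607 to 0.0926 in the 4 refits), and the cause was not tested. Of all 23999 probesets, 532 were called under Storey q-values, 497 under array quality weights, 626 under the intensity trend and 863 under the floor, against 1 of 84 members. Under the minimum mean signal 668 of all 16718 probesets were called, against 1 of 77 members. Gilts with the same replicate number did not deviate together (correlations -0.0561, 0.089, 0.00105 and 0.0407), and with the replicate block 0 member probesets were called, 2 had an unadjusted p under 0.05 in place of 6, and 0 of all probesets were called (3327 with an unadjusted p under 0.05), against 218 otherwise. Over the other alternatives 72 to 863 of all probesets were called.

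Leaving out each gilt, the median log2 difference ranged from -0.12 to 0.11 for all members, from -0.12 to 0.09 for complex I, from -0.06 to 0.05 for complex II, from -0.17 to 0.00 for complex III, from -0.21 to 0.16 for CYCS, from -0.06 to 0.20 for complex IV, from -0.15 to 0.17 for complex V and from -0.24 to 0.03 for assembly factors. All these medians moved by less than the spread between gilts. Meishan gilt 1 was highest in 26 of 60 subunits under quantile normalization, and the SD was larger in Meishan for 29 to 41 of 60 without Meishan gilt 1 or 2.

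When each gilt was left out, log2 differences took both signs for 8 genes with a difference near 0 and for the dimmer NDUFAF2 probeset, at -0.56 with all gilts. They ranged from -0.16 to 0.31 for ATP5G1, from -0.13 to 0.25 for ATP5G3, from -0.066 to 0.14 for COX6A1, from -0.32 to 0.15 for COX7A1, from -0.060 to 0.33 for COX7A2, from -0.21 to 0.16 for CYCS, from -0.19 to 0.20 for NDUFA1, from -0.067 to 0.23 for NDUFA4 and from -1.40 to 0.10 for the dimmer NDUFAF2 probeset. Array quality weights gave 0.14 for COX7A1 and -0.11 for CYCS, and the floor of 32 gave 0.17 for the dimmer NDUFAF2 probeset, each with the sign turned.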
